A study of Mus musculus with 12 samples.

Results

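The genes described are 7 complement and acute-phase genes: Saa3, Lcn2, Hp, C1s1, Serping1, Cfb and C3. They were chosen by name with earlier results of these data known. Of these 7, 6 could be read on the arrays and all 6 were among the 10674 genes tested, while no probe set carried the name C3 in the platform annotation, so C3 was not analysed here. The samples were mouse embryonic fibroblasts (MEFs), primary cells taken from embryos, under 1 of 2 chemical combinations known by the code names SGCF and 6TCF. What the combinations contain is not stated in the labels. Each combination formed an arm with 3 time points, days 0, 5 and 10, and a pair of arrays at each, which made 12 arrays in 6 groups. Both arms shared a culture history: cells were plated in medium with 10% fetal bovine serum and moved the next day to a medium with 15% serum and 40 ng/ml basic fibroblast growth factor. No group is labelled as untreated or vehicle-treated at day 5 or day 10, so a change from day 0 also holds time in culture and the change of medium. The labels name neither the mouse strain nor whether replicates came from separate embryos or dishes, and p-values may therefore measure technical spread between arrays.

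The acute-phase response is a change in secreted proteins that follows infection or injury. It is best known from the liver, where cytokines act through the transcription factors NF-kB, C/EBP and STAT3, but fibroblasts, adipocytes, macrophages and mesothelial cells also make several of these proteins. Complement is a cascade of plasma proteases: the classical pathway starts with C1q and the proteases C1r and C1s, the alternative pathway uses factor B, and both lead to cleavage of C3. Serping1 encodes the inhibitor that stops C1r and C1s.

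Sequence before the transcription start was given for 3 of the 6 measured genes, Saa3, Lcn2 and C1s1, and is shown for these. None was given for Hp, Serping1 and Cfb, so the matches below cannot be set against those genes. Each run is the 250 bases before the start site in RefSeq, build GRCm38.p6, on the minus strand: chr7:46715677-46715926 for Saa3, chr2:32387740-32387989 for Lcn2 and chr6:124542360-124542609 for the upstream of the 2 C1s1 starts. Capitals mark matches to TTGCNNAA, a form of the site bound by C/EBP factors, on either strand.
Saa3: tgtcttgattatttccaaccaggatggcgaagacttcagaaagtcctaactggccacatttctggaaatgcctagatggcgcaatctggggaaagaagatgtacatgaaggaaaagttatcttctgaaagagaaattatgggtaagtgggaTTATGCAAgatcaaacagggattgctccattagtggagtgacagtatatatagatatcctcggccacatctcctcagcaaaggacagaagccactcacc
Lcn2: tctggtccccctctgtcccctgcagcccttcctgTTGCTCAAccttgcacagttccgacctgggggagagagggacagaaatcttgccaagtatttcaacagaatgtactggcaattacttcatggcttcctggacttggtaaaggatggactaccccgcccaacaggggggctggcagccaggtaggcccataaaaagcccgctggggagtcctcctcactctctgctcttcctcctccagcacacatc
C1s1: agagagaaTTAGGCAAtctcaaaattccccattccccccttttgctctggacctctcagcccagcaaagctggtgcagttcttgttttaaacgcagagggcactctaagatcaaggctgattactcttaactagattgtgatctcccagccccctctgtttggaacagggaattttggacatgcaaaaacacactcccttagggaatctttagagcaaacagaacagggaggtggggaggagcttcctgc

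Counted from the start site, the match began at position -99 in Saa3, -216 in Lcn2 and -242 in C1s1. Of 32851 windows of the same length, 9.56% held TTGCNNAA. Other letters searched on both strands were GGGA and CC parted by any 4 bases, a form of the NF-kB site found in 17.6% of windows, TTCNNNGAA, a form of the STAT site found in 7.02%, and TATAAA, found in 12.4%. None of these other motifs occurred in the 3 windows shown. The window before the other C1s1 start, which is not shown, held the NF-kB form at position -35 and no match to TTGCNNAA. No match overlapped another. A match describes the letters and is not evidence that a factor was bound.

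All levels below are on the log2(intensity + 16) scale after quantile normalization between arrays, with n = 2 arrays in each group, which limits their precision. That scale understates the change of dim genes. Before normalization the array medians were 60.86 to 86.23 in the SGCF arm and 102.4 to 142 in the 6TCF arm, so array brightness coincided with the arm, and between SGCF and 6TCF a batch of processing and the combination cannot be told apart. Across genes, which are not independent replicates, Pearson r was 0.985 to 0.996 between the arrays of a group and 0.924 to 0.983 otherwise. The actin controls, whose 3' probe set exceeds the 5' one by more as RNA is less complete, gave a 3' minus 5' difference of 0.31, 0.44 and 0.54 at days 0, 5 and 10 of SGCF and 0.34, 0.80 and 1.04 at days 0, 5 and 10 of 6TCF (log2, group means). The Gapdh controls gave -0.03, 0.09 and 0.13 at days 0, 5 and 10 of SGCF and 0.28, 0.50 and 0.47 at days 0, 5 and 10 of 6TCF. The actin difference was thus larger at each later day in both arms, the Gapdh difference did not grow between days 5 and 10 of 6TCF, and their part in the changes below was not tested. All 10 fibroblast markers stood above 5.27, the log2 level of the filter on low values, in every group. Their levels were not constant: 3 rose and 3 fell by day 10 of SGCF, and 3 rose and 7 fell by day 10 of 6TCF. Among them were Pdgfra (1.86 ± 0.20 under SGCF, 2.08 ± 0.20 under 6TCF) and Fn1 (-0.71 ± 0.24 and -1.60 ± 0.24). Over all genes tested, 20.5% rose and 18.2% fell under SGCF, and 23.2% rose and 19.9% fell under 6TCF. The summed normalized intensity of the fibroblast markers was 66500 to 76990 at day 0, 49230 to 54510 at day 5 and 62860 to 63160 at day 10 of SGCF. At the same days of 6TCF it was 75480 to 75890, 66450 to 67290 and 57180 to 60880. The part of these shifts in the results was not tested.

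Saa3 encodes serum amyloid A3, an acute-phase apolipoprotein that mice make largely outside the liver, and it held the widest range of the 6 genes (6.74 between its highest and lowest group means). In the SGCF arm its log2 level was 7.93 and 8.53 on the day 0 arrays, 8.65 and 8.45 on the day 5 arrays and 11.10 and 11.78 on the day 10 arrays. In the 6TCF arm it was 6.23 and 5.71 at day 0, 9.67 and 9.89 at day 5 and 12.78 and 12.65 at day 10. Under SGCF the day 0 and day 5 arrays overlapped and both day 10 arrays lay above them, whereas under 6TCF every later pair of arrays lay above the earlier one.

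Saa3 rose by day 10 in both arms, by 3.21 ± 0.25 under SGCF (SE; limma, adjusted p = 1.5e-06) and by 6.74 ± 0.25 under 6TCF (adjusted p = 4.53e-09). The rise under 6TCF was the largest among the 10674 genes tested. By day 5 it had risen by 3.81 ± 0.25 under 6TCF (limma adjusted p = 5.22e-07), while its change under SGCF was 0.32 ± 0.25 (adjusted p = 0.4; 95% interval -0.23 to 0.86). From day 5 to day 10 the change was 2.89 ± 0.25 under SGCF and 2.93 ± 0.25 under 6TCF, both called. The arms already differed at day 0: Saa3 was higher in SGCF than in 6TCF by 2.26 ± 0.25 (adjusted p = 0.00028). A difference of the starting cells and a batch of processing cannot be told apart here. With all 4 day 0 arrays taken as 1 group, the day 10 change was 4.34 under SGCF and 5.61 under 6TCF, both still called. The day 5 change was then 2.68 under 6TCF, still called, and 1.45 under SGCF, not called (limma adjusted p = 0.113).

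In the order of its 6 group means, Saa3 stood highest at day 10 of 6TCF, then at day 10 of SGCF, day 5 of 6TCF, day 5 of SGCF, day 0 of SGCF and day 0 of 6TCF. Each neighbouring pair differed by 1.24 to 2.26 and was called, except day 5 and day 0 of SGCF, which differed by 0.32 with overlapping arrays.

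**Figure D1:**
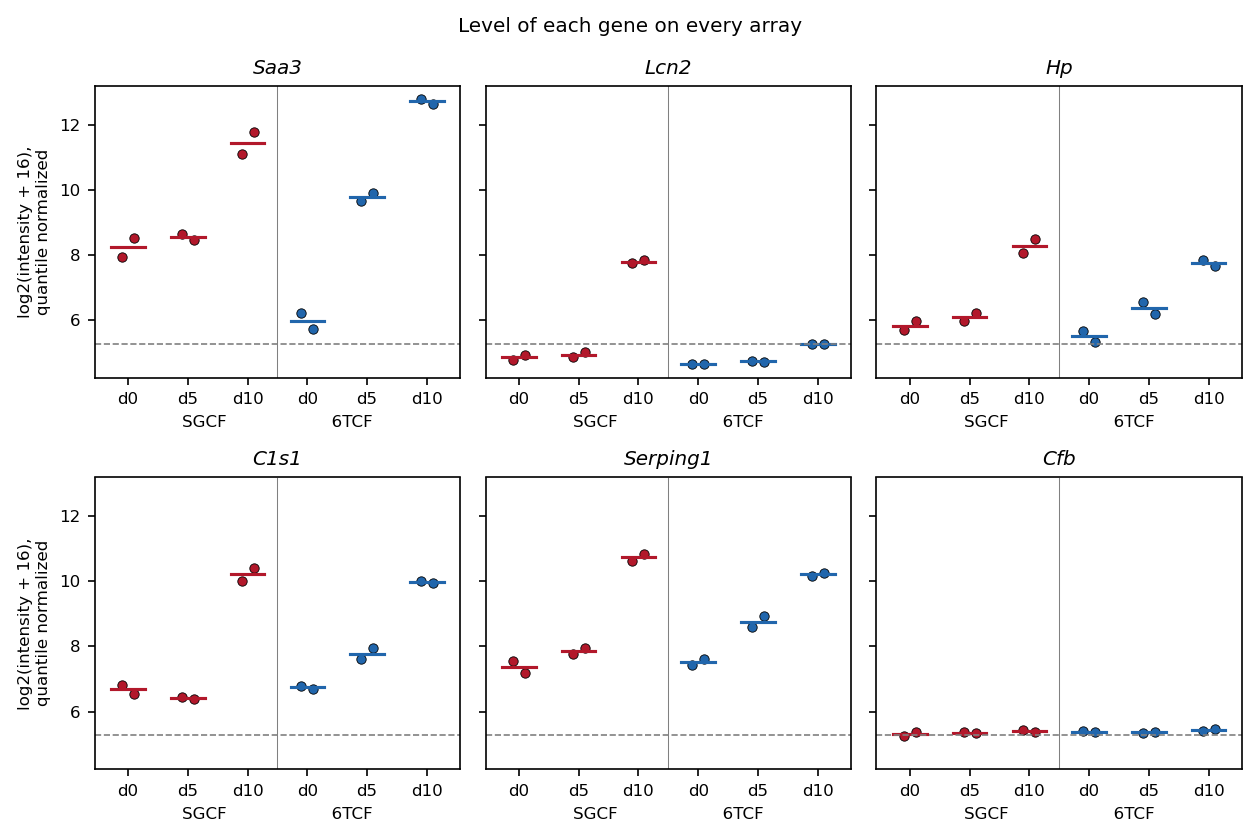
Level of each of the 6 measured genes on every array (points, log2(intensity + 16) after quantile normalization) with the mean of the 2 arrays of a group as a bar, SGCF in red and 6TCF in blue; d0, d5 and d10 are the days and the dashed line is the filter level of 5.27. Lcn2 stands above the dashed line on the SGCF day 10 arrays, at 7.75 and 7.84, and on no other array, Cfb stays near the line throughout, and the other 4 genes are highest at day 10 in each arm.

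Lcn2 encodes lipocalin 2, a secreted protein that binds bacterial siderophores and so withholds iron. Its log2 level was 4.78 and 4.93 at day 0, 4.88 and 5.01 at day 5 and 7.75 and 7.84 at day 10 of SGCF. Under 6TCF it was 4.64 and 4.65 at day 0, 4.76 and 4.71 at day 5 and 5.26 and 5.26 at day 10. The SGCF day 10 arrays were thus the only ones above the filter level, and Lcn2 entered the tests through that group, so it had to differ there to be tested at all. Dim values are also coarse in the deposited table, where 192 to 344 probe sets of an array share 1 value.

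Under SGCF, Lcn2 was higher at day 10 than at day 0 by 2.94 ± 0.11 (limma adjusted p = 8.37e-09) and higher than at day 5 by 2.85 ± 0.11 (adjusted p = 7.14e-08). Under 6TCF the change by day 10 was 0.62 ± 0.11 (adjusted p = 0.000891). The day 5 changes were 0.09 ± 0.11 in both arms and were not called. A pseudocount of 1 gave 3.898 by day 10 under SGCF and 1.22 under 6TCF, and a pseudocount of 64 gave 1.81 under SGCF and 0.24 under 6TCF, all called. The step from day 5 to day 10 of 6TCF was 0.53 ± 0.11 (adjusted p = 0.011), and this call was lost without 6TCF day 5 replicate 1, day 10 replicate 1 or day 10 replicate 2 (adjusted p = 0.0599, 0.09 and 0.0665) and with a pseudocount of 64 (0.0927). Below day 10 of SGCF, the group means followed the order day 10 of 6TCF, day 5 of SGCF, day 0 of SGCF, day 5 of 6TCF and day 0 of 6TCF. From day 5 of SGCF downward no neighbouring pair in that order was called.

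Hp encodes haptoglobin, which binds free hemoglobin in plasma. Its log2 level under SGCF was 5.69 and 5.97 at day 0, 5.98 and 6.23 at day 5 and 8.08 and 8.49 at day 10. Under 6TCF it was 5.66 and 5.34 at day 0, 6.57 and 6.20 at day 5 and 7.86 and 7.65 at day 10. The day 10 arrays lay above all earlier arrays of their arm.

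Hp rose by 2.45 ± 0.19 by day 10 of SGCF (limma adjusted p = 1.39e-06) and by 2.26 ± 0.19 by day 10 of 6TCF (adjusted p = 2.54e-06). By day 5 the changes were 0.28 ± 0.19 under SGCF (adjusted p = 0.322) and 0.89 ± 0.19 under 6TCF (adjusted p = 0.00433). The call at day 5 of 6TCF was lost without day 0 replicate 2 (0.72, adjusted p = 0.0567) or day 5 replicate 1 (0.70, adjusted p = 0.0505). With a pseudocount of 64 the day 10 changes were 1.776 under SGCF and 1.501 under 6TCF, still called. In level, day 10 of SGCF and day 10 of 6TCF were neighbours that differed by 0.52 ± 0.19 without passing the test (adjusted p = 0.0595), and among day 5 of 6TCF, day 5 of SGCF, day 0 of SGCF and day 0 of 6TCF no neighbouring pair was called.

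C1s1 encodes complement C1s, the protease of the C1 complex that cleaves C4 and C2. Its probe set has the suffix that Affymetrix gives to sets matching more than 1 similar transcript, and mice have a close copy, C1s2, without a named probe set here, so its signal may hold both. The log2 level was 6.82 and 6.55 at day 0, 6.44 and 6.38 at day 5 and 10.02 and 10.41 at day 10 of SGCF. Under 6TCF it was 6.79 and 6.70 at day 0, 7.61 and 7.94 at day 5 and 10.00 and 9.97 at day 10. Under SGCF the day 5 arrays lay just below the day 0 arrays, while under 6TCF they lay above them.

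C1s1 rose by 3.53 ± 0.16 by day 10 of SGCF (limma adjusted p = 2.41e-08) and by 3.24 ± 0.16 by day 10 of 6TCF (adjusted p = 3.66e-08). Its rise from day 5 to day 10 of SGCF, 3.80 ± 0.16, was exceeded by 2 of the genes tested. By day 5 the change was -0.28 ± 0.16 under SGCF (adjusted p = 0.241) and 1.03 ± 0.16 under 6TCF (adjusted p = 0.000485). At the top of its order, day 10 of SGCF and day 10 of 6TCF differed by 0.23 ± 0.16 (adjusted p = 0.315), then came day 5 of 6TCF, and day 0 of 6TCF, day 0 of SGCF and day 5 of SGCF followed with no neighbouring pair called.

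Serping1 encodes the C1 inhibitor, a serpin that also restrains the plasma kallikrein that releases bradykinin. Its log2 level was 7.56 and 7.19 at day 0, 7.77 and 7.96 at day 5 and 10.61 and 10.86 at day 10 of SGCF. It was 7.44 and 7.62 at day 0, 8.60 and 8.93 at day 5 and 10.18 and 10.26 at day 10 of 6TCF. In both arms each later pair of arrays lay above the earlier one.

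Serping1 rose by 3.36 ± 0.16 by day 10 of SGCF (limma adjusted p = 4.14e-08) and by 2.69 ± 0.16 by day 10 of 6TCF (adjusted p = 1.9e-07). By day 5 it changed by 0.49 ± 0.16 under SGCF (adjusted p = 0.046) and by 1.24 ± 0.16 under 6TCF (adjusted p = 0.000142). The SGCF day 5 call was narrow and was lost under 9 of 12 alternatives, among them leaving out SGCF day 0 replicate 2 (0.31), day 5 replicate 1 (0.59) or day 5 replicate 2 (0.40). The highest group, day 10 of SGCF, stood 0.52 ± 0.16 above day 10 of 6TCF (adjusted p = 0.0363), while at the bottom of the order the neighbours day 5 of SGCF and day 0 of 6TCF (0.34) and day 0 of 6TCF and day 0 of SGCF (0.15) were not called.

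Cfb encodes factor B, the protease of the alternative pathway that pairs with C3b. Its log2 level was 5.24 and 5.36 at day 0, 5.36 and 5.34 at day 5 and 5.43 and 5.36 at day 10 of SGCF. Under 6TCF it was 5.40 and 5.36 at day 0, 5.34 and 5.38 at day 5 and 5.41 and 5.47 at day 10. Its 6 group means spanned 0.14, all just above the filter level, and no comparison called it. Dim values are tied here too. The same normalized value, 5.3638, recurred on arrays of days 0, 5 and 10 of SGCF and of day 0 of 6TCF. The small span and the intervals below therefore describe a signal near the floor and do not show that Cfb was unchanged. By day 10 the change was 0.10 under SGCF (95% interval -0.14 to 0.33; limma adjusted p = 0.527) and 0.06 under 6TCF (-0.18 to 0.29; adjusted p = 0.702).

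Counted together, 5 of the 6 genes were higher at day 10 than at day 0 of SGCF and 0 were lower, where 20.5% of all genes tested were called higher and 18.2% lower. The count at day 10 of 6TCF was also 5 of 6, where 23.2% of all genes were called higher and 19.9% lower. The 6 genes, and the gene lists below, were chosen with earlier results of these data known. Counts of them are therefore a description and give no support of their own. Lcn2 is in both counts of 5 although it was tested only through its high SGCF group, so its place under SGCF was also shaped by the filter. By day 5, 1 of 6 was higher under SGCF, against 12.8% of all genes, and 4 of 6 were higher under 6TCF, against 15.1%. None of the 6 was lower by day 5, where the shares of all genes called lower were 12.6% under SGCF and 12.4% under 6TCF. At day 10 against day 5, 5 of 6 were higher and 0 lower in each arm, against 11.6% higher and 9.89% lower among all genes under SGCF and 8.6% higher and 6.99% lower under 6TCF. The median change of the 6 genes by day 10 was 3.08 under SGCF and 2.48 under 6TCF, while the median over all genes was 0.03 and -0.01. By day 5 the median of the 6 genes was 0.18 under SGCF and 0.96 under 6TCF.

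**Figure D2:**
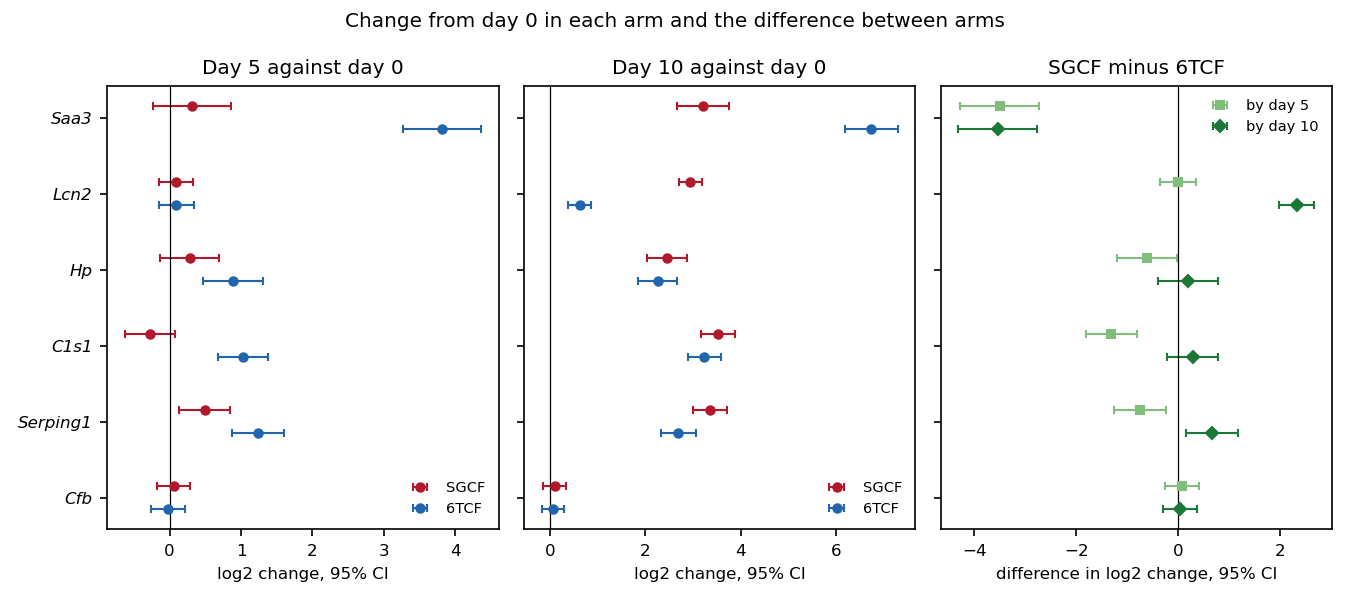
Log2 change from day 0 with its 95% confidence interval for the 6 genes at day 5 (left) and day 10 (middle), SGCF in red and 6TCF in blue, and the difference between the arms, SGCF minus 6TCF (right). By day 5 the 6TCF points of Saa3, Hp, C1s1 and Serping1 lie right of the SGCF points; by day 10 the differences between the arms farthest from 0 are those of Saa3 (-3.53) and Lcn2 (2.32).

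The change from day 0 was compared between the arms by an interaction contrast. By day 5, the Saa3 change under SGCF was smaller than under 6TCF by 3.50 ± 0.35 on the log2 scale (limma interaction, adjusted p = 0.000114), and the C1s1 change differed by -1.31 ± 0.23 (adjusted p = 0.00341). These were 2 of 6 genes called lower, against 5.97% of all genes, and 0 of 6 were called higher, against 2.85%. The corresponding differences for Serping1 (-0.74 ± 0.23, adjusted p = 0.0732) and Hp (-0.61 ± 0.27, adjusted p = 0.199) did not pass the test. For Lcn2 the difference by day 5 was below 0.01 in size, with a 95% interval of -0.35 to 0.34. The day 5 levels of Saa3 themselves stood 1.24 ± 0.25 apart, with the lower level in SGCF (limma adjusted p = 0.00464).

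By day 10, 2 of the 6 genes differed between the arms, in opposite directions. The Lcn2 change was larger under SGCF than under 6TCF by 2.32 ± 0.16 (limma interaction, adjusted p = 8.55e-06), the 4th largest positive difference among all genes tested, of which 12.1% were called in that direction. Because Lcn2 entered the tests only through its high level at day 10 of SGCF, with every 6TCF group below the filter level, this rank, p and call are given as a description. The Saa3 change differed by -3.53 ± 0.35 (adjusted p = 6.93e-05), where 13.3% of all genes were called lower. The day 10 levels of Saa3 themselves stood 1.27 ± 0.25 apart, with the lower level in SGCF (adjusted p = 0.00326). With a pseudocount of 64 these differences were 1.57 for Lcn2 and -2.91 for Saa3, and the Saa3 difference by day 5 was -2.79. The C1s1 and Hp differences were 0.29 (95% interval -0.21 to 0.78) and 0.20 (-0.39 to 0.78), and that of Hp was -0.14 under median scaling. The Serping1 difference of 0.67 ± 0.23 fell just short (adjusted p = 0.0535), and 4 of 14 alternatives called it or the day 5 difference. At day 0, Saa3 alone among the 6 genes was called between the arms, where 8.52% of all genes were called higher in SGCF and 8.61% lower.

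Set against the whole change from day 0 to day 10 within each arm, the part reached by day 5 was 9.87% for Saa3 under SGCF and 56.5% under 6TCF. It was 14.7% under SGCF and 45.9% under 6TCF for Serping1, and 11.3% and 39.3% for Hp in the same order of arms. For C1s1 it was 31.8% under 6TCF, and under SGCF the day 5 mean lay below that of day 0. These shares are on the log2 scale and describe the fitted means without a test of their own. The Saa3 shares also depend on its day 0 level, which was higher in SGCF by 2.26. With all 4 day 0 arrays as 1 group, Saa3 changed by 1.45 by day 5 and 4.34 by day 10 of SGCF. The corresponding changes under 6TCF were 2.68 and 5.61. The SGCF shares rest on small day 5 changes that single arrays move by over 1.5 times: with 1 array left out, the Saa3 change ran from 0.02 (without day 0 replicate 1) to 0.62 (without day 0 replicate 2), and the Hp change from 0.14 (without day 0 replicate 1) to 0.42 (without day 0 replicate 2), with 0.16 without day 5 replicate 2.

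Of 37 other complement genes listed, 27 had a named probe set and 23 were tested. By day 10 of SGCF, 6 rose and 7 fell (median -0.17), and by day 10 of 6TCF, 8 rose and 4 fell (median 0.14). Over all genes tested, 20.5% rose and 18.2% fell under SGCF (median 0.03) and 23.2% rose and 19.9% fell under 6TCF (median -0.01), and the complement list is not set apart from them by any test. The genes that rose included Clu, which encodes clusterin, an inhibitor of the terminal complex (3.58 ± 0.12 under SGCF, 2.90 ± 0.12 under 6TCF). C1ra, the protease that activates C1s, rose by 2.72 ± 0.17 under SGCF and 2.06 ± 0.17 under 6TCF. Cd55, a membrane protein that speeds the decay of the C3 convertases, rose by 1.77 ± 0.19 and 2.52 ± 0.19 in the same order of arms. The arm difference was called for Clu (0.68 ± 0.17, limma interaction, adjusted p = 0.0138) and not for C1ra or Cd55 (adjusted p = 0.0568 and 0.0645).

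The 3 chains of C1q, the recognition part of the C1 complex, fell in both arms. C1qa changed by -4.51 ± 0.14 by day 10 of SGCF and -1.92 ± 0.14 by day 10 of 6TCF, C1qb by -3.84 ± 0.22 and -1.19 ± 0.22, and C1qc by -2.86 ± 0.17 and -1.40 ± 0.17. The arm difference was called for C1qa, C1qb and C1qc (limma interaction, adjusted p = 1.2e-05, 0.000195 and 0.0019). Macrophages are the main source of C1q, and the 18 macrophage markers, which include these 3 chains, summed to 8319 to 9244 units of normalized intensity at day 0, 837.9 to 979.6 at day 5 and 664.2 to 752.9 at day 10 of SGCF. Under 6TCF they summed to 3795 to 3984 at day 0, 1136 to 1291 at day 5 and 1983 to 2147 at day 10. Such sums are carried mostly by their bright genes. Of 16 macrophage markers tested, 16 fell by day 10 of SGCF, where 18.2% of all genes fell and 20.5% rose. By day 10 of 6TCF, 11 fell, 1 rose (Cd53, 1.07 ± 0.20) and 4 were not called, Csf1r (-0.05) and Mrc1 (0.07) among them. Over all genes, 19.9% fell and 23.2% rose under 6TCF. In these bulk samples fewer cells of a type and less RNA per cell cannot be told apart.

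**Figure D3:**
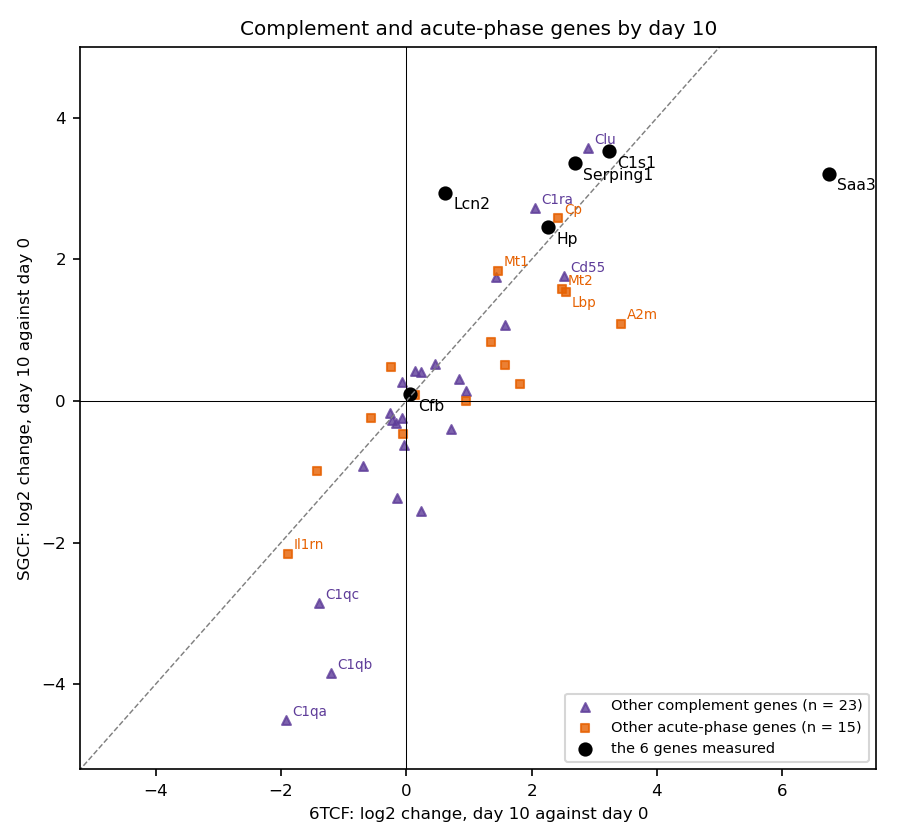
Log2 change from day 0 to day 10 under SGCF (vertical) against that under 6TCF (horizontal) for the 6 genes (black), 23 other complement genes (triangles) and 15 other acute-phase genes (squares), with the line of equal change dashed. C1s1, Serping1 and Hp lie near the line, Saa3 lies to its right at 6.74 and Lcn2 above it at 2.94, and the 3 C1q chains are at the lower left.

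Of 32 other acute-phase genes, 15 were tested, since 13 of the 28 with a probe set, Saa1 and Saa2 among them, stayed below the filter level. By day 10 of SGCF, 6 rose and 2 fell (median 0.48), and by day 10 of 6TCF, 9 rose and 3 fell (median 1.35), against 20.5% and 23.2% of all genes called higher and 18.2% and 19.9% called lower in the same order of arms. Cp, which encodes the copper-carrying ferroxidase ceruloplasmin, rose by 2.59 ± 0.14 under SGCF and 2.42 ± 0.14 under 6TCF. A2m, the broad protease inhibitor alpha-2-macroglobulin, rose by 1.09 ± 0.21 under SGCF and 3.43 ± 0.21 under 6TCF, and the difference between the arms was called (-2.33 ± 0.30, limma adjusted p = 3e-04). Lbp, which carries bacterial lipopolysaccharide to its receptor, also differed between the arms, with 1.54 ± 0.16 under SGCF and 2.54 ± 0.16 under 6TCF (-1.01 ± 0.23, adjusted p = 0.0093). The metallothionein genes Mt1 and Mt2, whose proteins bind zinc and copper, rose by 1.84 ± 0.12 and 1.58 ± 0.12 under SGCF. Under 6TCF they rose by 1.46 ± 0.12 and 2.48 ± 0.12. The arm difference was called for Mt2 (-0.91 ± 0.17, limma adjusted p = 0.00347) and not for Mt1, Cp or Il1rn (adjusted p = 0.131, 0.563 and 0.461). Il1rn, the interleukin-1 receptor antagonist, fell by 2.16 ± 0.17 under SGCF and by 1.89 ± 0.17 under 6TCF.

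Among 27 tested genes of cytokine, NF-kB, C/EBP and STAT3 signalling, 21 rose and 0 fell by day 10 of SGCF (median 0.74), and 12 rose and 0 fell by day 10 of 6TCF (median 0.21), where 20.5% of all genes rose and 18.2% fell under SGCF and 23.2% rose and 19.9% fell under 6TCF. Socs3, a feedback inhibitor of STAT3 signalling, led in both arms with 1.89 ± 0.16 under SGCF and 2.52 ± 0.16 under 6TCF. The transcription factor gene Cebpd rose by 1.46 ± 0.22 and 1.14 ± 0.22, and Cebpb by 1.28 ± 0.17 and 0.59 ± 0.17, in the same order of arms. Il1r1, the signalling receptor of interleukin-1, rose by 1.12 ± 0.12 under SGCF and 1.66 ± 0.12 under 6TCF. Its partner chain gene Il1rap rose by 1.15 ± 0.16 under SGCF and 0.93 ± 0.16 under 6TCF. Nfkbia, the inhibitor that NF-kB itself induces, rose by 1.05 ± 0.13 under SGCF and 1.20 ± 0.13 under 6TCF. The arm difference by day 10 was called for Il1r1 (-0.54 ± 0.17, limma interaction, adjusted p = 0.0373). It was not called for Socs3, Cebpd, Cebpb, Il1rap or Nfkbia (limma interaction, adjusted p = 0.0566, 0.485, 0.051, 0.511 and 0.605). The 5 tested cytokine genes on the list are named here after their values were seen. Of the other cytokine genes listed, Osm had no named probe set and Il1a stayed below the filter level. Il11 (0.73 ± 0.18, limma adjusted p = 0.00643) and Il1b (0.37 ± 0.12, adjusted p = 0.0368) rose by day 10 of SGCF and were not called by day 10 of 6TCF (-0.34 ± 0.18 and -0.22 ± 0.12). The arm difference by day 10 was called for both (1.075 and 0.583, limma interaction, adjusted p = 0.0104 and 0.0329). Il1b was near the filter level, at 5.27 and 5.63 at days 0 and 10 of SGCF, and at 5.77 and 5.55 at the same days of 6TCF. At day 0 it was already lower in SGCF (-0.50, limma adjusted p = 0.0209). Il6, Tnf and Lif were called in neither arm, with changes of 0.37 ± 0.22, -0.29 ± 0.12 and -0.05 ± 0.17 under SGCF and 0.21 ± 0.22, 0.17 ± 0.12 and 0.07 ± 0.17 under 6TCF.

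Markers of cell types that make these proteins also moved, and their part in the changes above was not tested. The 9 mesothelium markers summed to 821.9 to 1238 at day 10 and 1051 to 1052 at day 0 of SGCF, and 2 of 9 rose and 3 fell. At day 10 of 6TCF they summed to 8544 to 9200, against 2531 to 2782 at day 0, and 7 of 9 rose and 1 fell. Over all genes tested, 20.5% rose and 18.2% fell by day 10 of SGCF. By day 10 of 6TCF, 23.2% of all genes rose and 19.9% fell. Summed adipocyte markers (8 genes) were 1640 to 1732 at day 10 of SGCF, against 1057 to 1213 at day 0, and 3188 to 3723 at day 10 of 6TCF, against 906.5 to 1045 at day 0. Bright genes weigh most in such a sum: Lpl stood at log2 11.47 at day 10 of 6TCF and 9.35 at day 10 of SGCF. In the same order, Fabp4 stood at 8.66 and 9.52 and Adipoq at 5.34 and 6.72, both higher in SGCF. Pparg stood at 6.69 and 6.84, Retn at 5.47 and 5.64 and Cebpa at 6.51 and 6.56. Hepatocyte markers (12 genes) remained dim in sum, at 618.2 to 744.6 at day 10 of SGCF, against 273.7 to 353.4 at day 0, and at 558.1 to 615.5 at day 10 of 6TCF, against 283 to 307 at day 0. Of 8 hepatocyte markers tested, 3 rose and 0 fell by day 10 of SGCF. By day 10 of 6TCF, 4 rose and 1 fell, which was Ttr (-0.57 ± 0.17). Alb, the albumin gene, moved most, by 3.65 under SGCF and 2.72 under 6TCF, while Apob, Fgb, Tat and Cps1 stayed below the filter level in every group. Of the 9 neutrophil markers, Mpo, Ngp, S100a9 and Cxcr2 were below that level in every group. S100a8 rose by 2.06 under SGCF and 2.66 under 6TCF, and the other tested markers, Elane, Ltf, Camp and Csf3r, were not called by day 10 in either arm.

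At day 0, 14 of 16 tested macrophage markers were called higher in SGCF than in 6TCF fibroblasts and 0 were called lower. Of 9 mesothelium markers, 6 were called lower and 1, Wnt10a, was called higher (1.48 ± 0.19). Over all genes tested, 8.52% were called higher and 8.61% lower. The marker differences stood beside the higher day 0 level of Saa3 in SGCF, and their part in it was not tested.

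**Figure D4:**
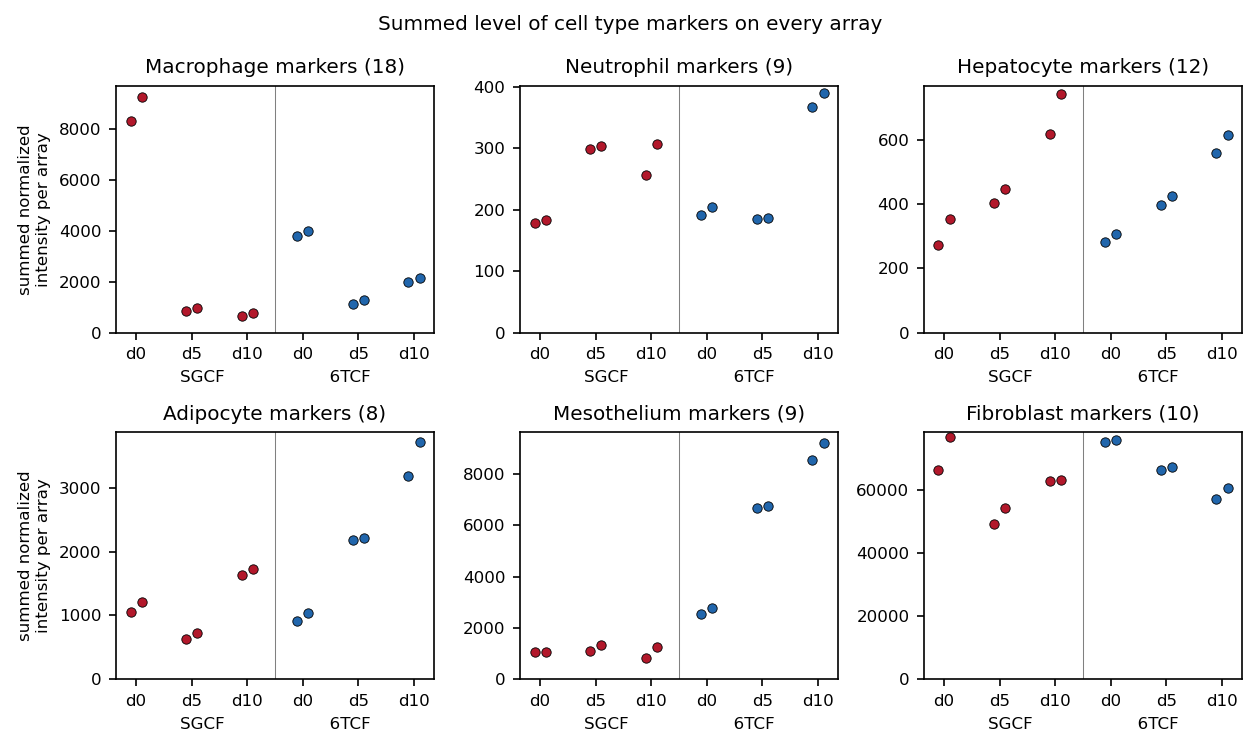
Summed normalized intensity of the named markers of 6 cell types, with 1 point per array, SGCF in red and 6TCF in blue and days from left to right in each arm. Macrophage markers are highest at day 0 of SGCF (8319 to 9244), mesothelium markers climb with time under 6TCF to 8544 to 9200, and neutrophil and hepatocyte markers reach no more than 744.6 on any array.

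Over the 12 arrays, which share 6 groups, C1s1, Serping1 and Hp followed each other with pairwise Pearson r of 0.951 to 0.979. Among 2847 other genes whose group means spanned at least 1 on the log2 scale, the genes most like Serping1 were Fgl1, a fibrinogen-like secreted protein (r = 0.99), and Hsd11b1, the enzyme that regenerates active glucocorticoid (r = 0.99). Hsd11b1 was also near the top for Hp (r = 0.98), beside Il13ra2, the decoy receptor of interleukin-13 (r = 0.98). Its group means were 5.78, 6.37 and 10.14 at days 0, 5 and 10 of SGCF and 5.50, 7.10 and 9.19 at days 0, 5 and 10 of 6TCF. C1s1 was most like Car11 (r = 0.99) and Vsir, an immune checkpoint ligand (r = 0.98). Saa3 was most like Rab33a, a small GTPase gene (r = 0.98). Lcn2 was most like the adipocyte hormone gene Adipoq (r = 0.95) and the kininogen gene Kng1 (r = 0.95). Adipoq stood at 6.72 at day 10 of SGCF and at 5.34 at day 10 of 6TCF. Kng1 stood at 8.42 at day 10 of SGCF and at 5.1 to 6.46 in the other groups. Lcn2 was above the filter level only at day 10 of SGCF, so its r values rest mainly on that pair of arrays. Any gene high there would score high, and this likeness is a description. For Cfb the highest r was 0.78, with Ddb2, and the group means of Cfb spanned 0.14.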

How the data were processed

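Expression was measured on Affymetrix Mouse Genome 430A 2.0 arrays, 12 in all. The deposited values are linear intensity values for 22690 probe sets per array. Per the submitters' processing notes, RMA, limma and MAS5 were used, with no version or role stated, so which step made the intensity values is not known here. Array medians were unequal, so quantile normalization (without the 64 control probe sets) and log2(intensity + 16) were applied. Groups came from the sample titles. Of the probe sets, 20380 had 1 gene symbol in the platform annotation, 691 several and 1555 were unnamed here. For a gene with several probe sets the brightest on average stood for it, which left 12393 genes. The filter on low values asked for at least 1 group mean above the 25th percentile (log2 5.27) and left 10674 genes. Limma 3.58.1 in R 4.3.3 fitted 6 group means on all arrays (6 residual and 5.53 prior degrees of freedom) for 9 comparisons and for neighbouring group means of each member, with Benjamini-Hochberg adjustment over all genes tested and calls at an adjusted p under 0.05. The fit was tested on simulated data. Alternatives were the normalization, the pseudocount, the filter, the probe set rule, the arrays in the fit, the day 0 arrays, the replicate block and leaving out each array.

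The members and gene lists were chosen with earlier results of these data known. Named from each list were the 4 called genes with the largest change by day 10 in each arm, and for likeness up to 3 genes per member with the highest Pearson r over the arrays.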

Additional observations from a re-analysis of the deposited data

Results flagged for a closer look

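The change from day 0 differed between the arms, by the interaction test, in 4 results. Saa3 had a smaller change under SGCF than under 6TCF by day 5 (-3.50) and by day 10 (-3.53). C1s1 had a smaller change under SGCF by day 5 (-1.31). Lcn2 had a larger change under SGCF by day 10 (2.32), but it was tested only because its SGCF day 10 level is high, and every 6TCF group lay below the filter level. Beside the Saa3 results stand its day 0 levels, 8.23 in SGCF and 5.97 in 6TCF, and the macrophage and mesothelium marker sums given above, whose part was not tested.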

How the results depend on the processing

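Each of 54 changes of the 6 genes was recomputed under up to 14 alternatives, and 27 of the 30 called changes kept their direction and call under all of them. The exceptions were Serping1 at day 5 of SGCF, Hp at day 5 of 6TCF and Lcn2 between days 5 and 10 of 6TCF. The 27 include the Lcn2 changes that involve day 10 of SGCF, the group through which Lcn2 entered the tests, so for these it is a description only. They also include the Lcn2 change by day 10 of 6TCF, which the fit of the 6TCF arrays alone could not test. The count of genes called at day 5 of SGCF was 0 of 6 with median scaling, a pseudocount of 1, no filter, only the arm's arrays, all 4 day 0 arrays as 1 group and the replicate block, and 0 to 1 with single arrays left out. At day 0 between the arms it was 2 with median scaling and with a pseudocount of 1, the added gene being Lcn2 (0.73 and 0.47). Serping1 was called in the arm difference by day 10 with a pseudocount of 64 (0.62), the mean of probe sets (0.67) and without SGCF day 0 replicate 1 (0.85), and by day 5 with a pseudocount of 64 (-0.66) and without SGCF day 0 replicate 2 (-0.93). Only uncalled changes turned sign. Median scaling gave 0.048 for Cfb at day 5 of 6TCF, -0.036 between days 5 and 10 of SGCF and 0.202 at day 0 between the arms, and -0.139 for the Hp arm difference by day 10. Pooled day 0 arrays gave -0.014 for Lcn2 and 0.017 for Cfb at day 5 of 6TCF, and a pseudocount of 64 gave 0.002 for the Lcn2 arm difference by day 5. With single arrays left out, that Lcn2 difference ran from -0.076 to 0.071, positive without SGCF day 0 replicate 2 (0.071), SGCF day 5 replicate 1 (0.061) or 6TCF day 5 replicate 1 (0.021). The arm difference by day 10 ran from -0.011 (without SGCF day 10 replicate 2) to 0.4 for Hp and from -0.027 (without SGCF day 0 replicate 1) to 0.1 for Cfb. Cfb at day 5 of SGCF ran from -0.01 (without SGCF day 0 replicate 1) to 0.118. At day 0 between the arms, C1s1 ran from -0.195 to 0.077 and Serping1 from -0.338 to 0.03, both positive without SGCF day 0 replicate 2. The cause of these shifts was not tested. Lcn2 could not be tested in the 6TCF arrays alone, where it stayed below the filter level.

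A pseudocount of 64 also gave 3.06 and 5.93 for Saa3 at days 5 and 10 of 6TCF, 1.65 for Saa3 at day 0 between the arms, and 1.78 for Lcn2 and 3.21 for C1s1 between days 5 and 10 of SGCF. Over all genes, counts of calls moved by over 1.5 times mainly with single arrays left out: 1750 to 2377 against 2942 at day 5 of 6TCF, 357 to 1445 against 1664 between days 5 and 10 of 6TCF, 1360 to 1609 against 2298 between days 5 and 10 of SGCF, 375 to 2969 against 1828 at day 0 between the arms, and 556 to 1305 against 941 and 1436 to 3803 against 2709 for the arm differences by days 5 and 10. With only the arm's arrays the count between days 5 and 10 of 6TCF was 2511. Median scaling changed the share of higher calls between days 5 and 10 of SGCF to 43.5%, against 54%, at day 10 against day 0 of SGCF to 45.7%, against 53%, and at day 5 of 6TCF to 46.9%, against 54.9%. Replicates share only a number: deviations of same-numbered arrays correlated at -0.273 to 0.109 within an arm. With the replicate block, Serping1 at day 5 of SGCF had an adjusted p of 0.0568, and no other call of the 6 genes changed.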
